A study of Mus musculus with 6 samples.

Results

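The genes described here are 10 genes of activated microglia and of phagocytosis (Cd68, Ctsb, Ctsd, Ctss, Lyz2, Gpnmb, Spp1, Lpl, Itgax and Cst7), taken by symbol from the 24062 genes of a raw count table of mouse retina RNA-seq. The list was drawn up with earlier results of these data known. The study compared 3 Chx10-Cre Rb1/p107/Hells retinae (hereafter TKO) with 3 Chx10-Cre Rb1/p107 retinae (hereafter DKO), all labelled as strain C57BL/6 (the C57BL/6N background in the study's methods) and at postnatal day 21 (P21). Both genotypes lack p107 in the germline and lose floxed Rb1 where Chx10-Cre is expressed, and the TKO also loses floxed Hells, which encodes a chromatin remodeler of the SNF2 family. Chx10-Cre acts in a mosaic pattern in retinal progenitors, so a retina holds recombined and non-recombined cells, and microglia do not derive from these progenitors. No retina with intact Rb1 and p107 was analysed here, so every value is TKO relative to DKO.

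Microglia are the resident macrophages of the retina. They prune synapses, clear dead cells and digest the cargo in lysosomes, and in degenerating or tumor-bearing tissue they switch from a homeostatic program to one with higher expression of lysosomal proteases, lipid-handling genes and phagocytic receptors. The 10 genes belong to that program, but several are not restricted to it. Ctsb and Ctsd are lysosomal proteases of nearly all cells, Spp1 is also made by retinal ganglion cells and bone, Gpnmb by pigment cells, and Lpl by other lipid-using cells.

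The libraries summed to between 10343907 and 14203098 counts, and 16904 genes with a sum of at least 10 counts were tested, among them all 10 genes. Values are given as normalized counts, for which each count was divided by its library's TMM-scaled size and multiplied by the mean of these sizes. Fold changes, standard errors and adjusted p come from the quasi-likelihood test of edgeR fitted on all tested genes, with Benjamini-Hochberg adjustment over 16904 genes, and a gene was called at an adjusted p of at most 0.05. Hells, the targeted gene, was low in every TKO retina (60.8, 68.4 and 83.4 normalized counts, replicates in the order 1, 2, 3 here and in all values that follow) and higher in every DKO retina (678, 523 and 395). Its log2 fold change was -2.91 (SE 0.22, adjusted p = 0.0036). Markers of other cells moved with the genotype. Of 8 genes of dividing cells, 8 were lower in TKO (median log2 fold change -2.71), and of 8 rod genes, 8 were higher (1.82). Of 8 Muller glia markers, 4 were higher and 1 was lower. Of 8 gliosis genes, 1 was lower, the stress-induced Lcn2 (log2 fold change -4.86, SE 0.72, adjusted p = 0.0073). The summed level of lens genes was 48.5, 270 and 39.0 CPM (counts scaled to a common library size) in TKO, so TKO replicate 2 stood apart, and between 5.81 and 6.62 CPM in DKO. Bone genes stood out in DKO replicate 1, as given with Spp1. The part of these tissues in the values of the 10 genes was not tested.

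**Figure D1:**
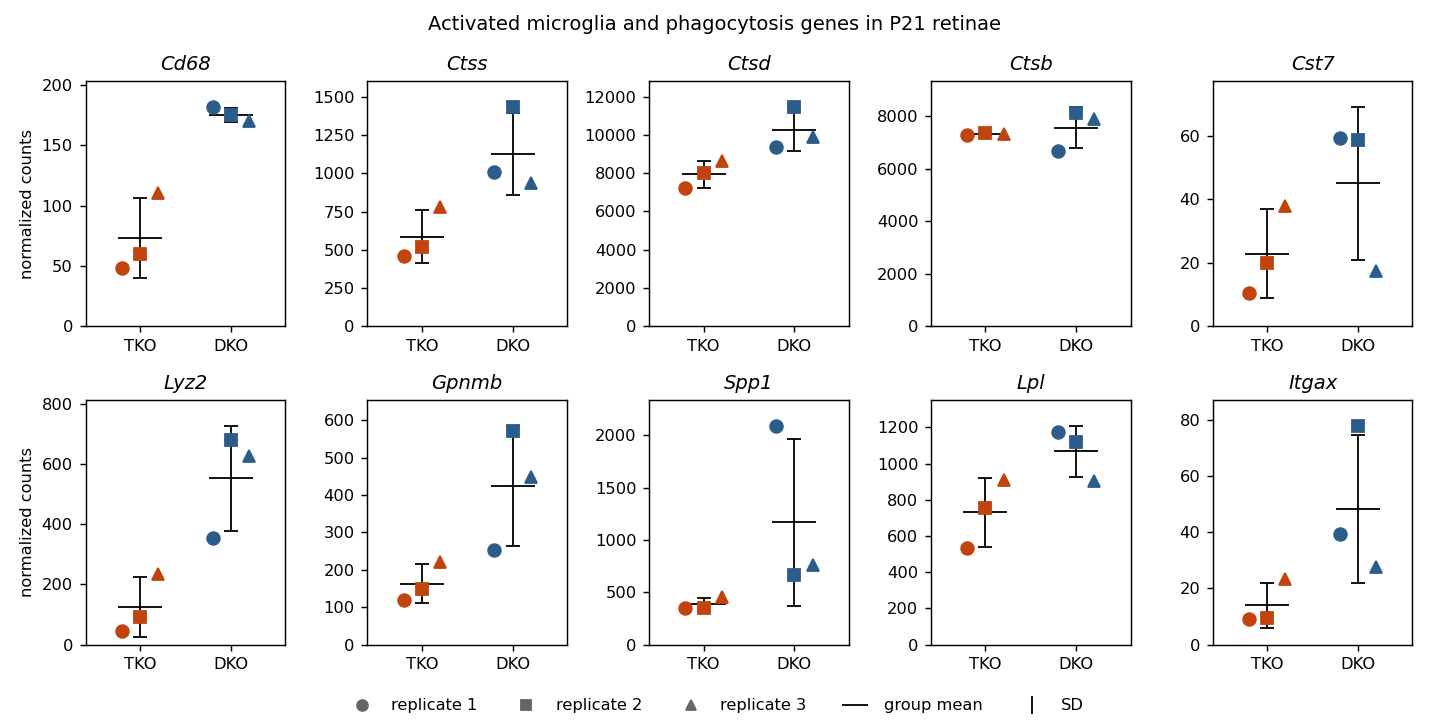
Normalized counts (y axis, from 0) of each of the 10 genes in 3 TKO and 3 DKO retinae at P21, with marker shapes for the replicate number and lines for the group mean and SD. TKO replicate 1 is the lowest TKO retina for 10 of 10 genes, and the groups do not overlap for 7 of 10.

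Of the 10 genes, 6 were lower in TKO and 0 were higher. Over all tested genes 16.6% were called, 9.20% lower and 7.35% higher. At an unadjusted p of at most 0.05 in edgeR, 8 of the 10 were lower and 0 higher. Many genes pass that mark, as a gene with an unadjusted p of 0.049 ranked 5549 of the 16904 tested genes by p. DESeq2 called 8 of the 10 lower and 0 higher, beside 1769 lower and 1490 higher among all tested genes. The study's rule, set on DESeq2 there and applied here to the edgeR fit, also asks for a 2-fold change and a mean of 10 or more normalized counts. By it 5 of the 10 were lower, beside 4.38% of all tested genes (6.35% in either direction). The median log2 fold change of the 10 genes was -1.13, beside -0.01 over all tested genes. Every TKO retina lay below every DKO retina for 7 of the 10 genes, beside 20.6% of all tested genes, and 18.0% lay the other way. The 6 genes called lower were Cd68, Ctss, Lyz2, Gpnmb, Spp1 and Itgax, and the other genes were Ctsb, Ctsd, Lpl and Cst7. Among the TKO retinae, replicate 1 held the lowest value of 10 genes and replicate 3 the highest of 9. The summed level of dividing-cell genes also rose over the TKO replicates (36.1, 67.9 and 147 CPM). That of rod genes fell (53816, 45970 and 26237 CPM), and that of lens genes did not follow this order. Among the DKO retinae, replicate 2 was highest for 6 genes and replicate 1 for 4. In bulk tissue, fewer microglia and less RNA per microglial cell cannot be told apart.

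**Figure D2:**
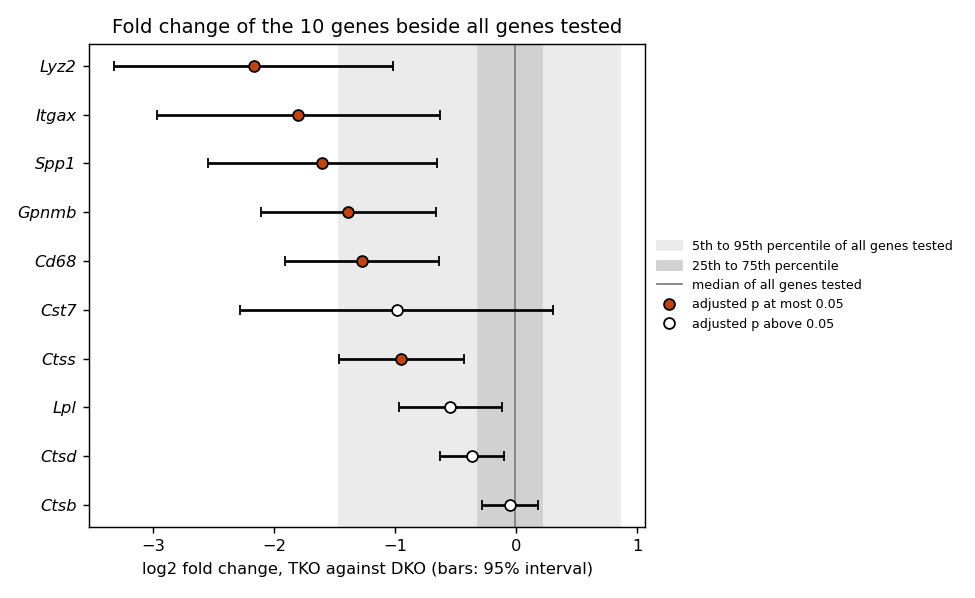
Log2 fold change of TKO against DKO (x axis) with 95% intervals for the 10 genes, over bands for the spread of all 16904 tested genes. The 6 filled points (adjusted p at most 0.05) lie between -0.95 and -2.17, and Ctsb lies at -0.05, near the median of all genes.

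The region before the start of 4 called genes is shown, because of the 6 genes called lower these 4 held at least 1 of the motifs searched, and Lyz2 and Gpnmb held none. The sequences are the 250 bases upstream of the start in RefSeq (GRCm38.p6), 5′ to 3′ on the gene's own strand, with matches in capitals. Promoters of 8 of the 10 genes were matched, in 9 windows. A second window of Spp1 (chr5:104435942-104436191), not shown, held none of the motifs. Both strands were searched for GAAA, any 2 bases and GAAA, the core of the interferon-stimulated response element, for TGANTCA, bound by AP-1, for GAGGAAG, bound by PU.1, and for CACGTG, the E-box of lysosomal gene regulators, and these were found in 2.98%, 6.75%, 10.6% and 6.02% of 32851 promoter windows.

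Cd68, minus strand, chr11:69666171-69666420: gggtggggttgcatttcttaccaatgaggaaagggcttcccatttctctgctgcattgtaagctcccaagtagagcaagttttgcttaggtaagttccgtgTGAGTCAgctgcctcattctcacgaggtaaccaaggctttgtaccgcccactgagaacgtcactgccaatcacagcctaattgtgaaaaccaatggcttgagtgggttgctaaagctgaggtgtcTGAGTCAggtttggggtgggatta
Ctss, plus strand, chr3:95526536-95526785: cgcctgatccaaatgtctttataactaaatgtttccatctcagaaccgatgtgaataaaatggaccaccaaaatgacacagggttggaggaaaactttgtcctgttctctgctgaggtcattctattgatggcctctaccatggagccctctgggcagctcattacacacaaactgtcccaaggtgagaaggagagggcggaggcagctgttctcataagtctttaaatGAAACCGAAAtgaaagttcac
Spp1, plus strand, chr5:104434861-104435110: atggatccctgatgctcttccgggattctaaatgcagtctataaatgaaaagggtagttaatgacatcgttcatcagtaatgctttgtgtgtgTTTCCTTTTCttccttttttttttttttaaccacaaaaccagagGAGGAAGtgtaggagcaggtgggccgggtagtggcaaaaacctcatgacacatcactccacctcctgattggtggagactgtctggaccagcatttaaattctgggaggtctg
Itgax, plus strand, chr7:128129300-128129549: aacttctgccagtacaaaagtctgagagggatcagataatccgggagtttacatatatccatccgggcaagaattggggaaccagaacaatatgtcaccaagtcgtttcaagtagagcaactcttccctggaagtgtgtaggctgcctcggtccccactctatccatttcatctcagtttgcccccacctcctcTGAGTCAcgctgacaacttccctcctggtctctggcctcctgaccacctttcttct

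The AP-1 letters begin 149 and 24 bases before the start in Cd68 and 56 bases before it in Itgax. The interferon element core begins 21 bases before the start in Ctss and 157 bases before it, on the other strand, in Spp1, where the PU.1 core begins 113 bases before the start. Ctsd, which was not called, held the E-box letters 245 and 98 bases before its start. The window of Cst7 held none of the 4 motifs. A match is a description of letters and was not tested as a binding site.

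Cd68, Ctsb, Ctsd, Ctss and Cst7 are lysosomal. Gene coordinates are those of GRCm38. Cd68 (ENSMUSG00000018774.13, chr11:69664213-69666153, minus strand) encodes a heavily glycosylated lysosomal membrane protein of macrophages and is the usual stain for phagocytic microglia. It had 48.2, 60.0 and 110 normalized counts in TKO and 182, 175 and 170 in DKO. The DKO retinae were close to each other and every TKO retina was lower. The log2 fold change was -1.27 (SE 0.28, adjusted p = 0.020), a 2.42-fold lower level with a 95% interval from 1.55 to 3.77. The call was lost without TKO replicate 2 (adjusted p = 0.084), without DKO replicate 1 (0.071) and without DKO replicate 2 (0.074).

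Ctss (ENSMUSG00000038642.10, chr3:95526786-95556403, plus strand) encodes cathepsin S, a cysteine protease largely restricted to myeloid cells that also trims the invariant chain of MHC class II. It had 458, 516 and 782 normalized counts in TKO and 1009, 1433 and 937 in DKO, with no overlap. It shares its strand and part of its span with the pseudogene Hmgb1-ps5. The log2 fold change was -0.95 (SE 0.22, adjusted p = 0.025), which is under the 2-fold size that the study's call rule asks for. Leaving out TKO replicate 1 or 2 or DKO replicate 1 or 2 ended the call (adjusted p from 0.063 to 0.10).

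Ctsd (ENSMUSG00000007891.16, chr7:142375911-142388038, minus strand) and Ctsb (ENSMUSG00000021939.8, chr14:63122462-63145923, plus strand) encode the abundant lysosomal proteases cathepsin D and cathepsin B. Ctsd shares its strand and part of its span with the gene model Gm49369. It had 7223, 7989 and 8611 normalized counts in TKO and 9365, 11447 and 9892 in DKO. Every TKO retina was below every DKO retina, but the difference was small and was not called (log2 fold change -0.37, SE 0.12, adjusted p = 0.063). It passed with DESeq2 (adjusted p = 0.016) and with library totals alone as the scaling (0.031). Ctsb had 7275, 7344 and 7335 normalized counts in TKO and 6674, 8118 and 7899 in DKO. The groups overlapped, and the log2 fold change was -0.05 (SE 0.10, adjusted p = 0.78), with a 95% interval from -0.28 to 0.18. Ctsb overlaps Fdft1 on the opposite strand, and the strand setting of the counting was not given in the sources used here, so reads of the overlap may be split between them.

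Cst7 (ENSMUSG00000068129.5, chr2:150570415-150578944, plus strand) encodes cystatin F, an endolysosomal inhibitor of cysteine proteases. It had 10.3, 20.0 and 38 normalized counts in TKO and 59.3, 58.7 and 17.3 in DKO. DKO replicate 3 lay inside the TKO range, and the difference was not called (log2 fold change -0.99, SE 0.56, adjusted p = 0.26). The 95% interval of the log2 fold change ran from -2.28 to 0.30, so neither a large fall nor no change is set apart at these counts.

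Levels of different genes were compared per length of exon (RPKM, counts scaled by exon length and by library size). On that scale Ctsd had 344 ± 36.4 in DKO and 267 ± 23.4 in TKO (SD, n = 3), and Ctsb had 98.8 ± 10.2 and 95.6 ± 0.491. Ctss followed with 65.6 ± 15.6 in DKO and 34.1 ± 10.1 in TKO. Spp1 was next with 56.1 ± 38.3 in DKO and 18.5 ± 2.96 in TKO, and in DKO its range overlapped with those of Ctss and Lyz2. Cd68 had 11 ± 0.364 in DKO and 4.58 ± 2.08 in TKO. In both genotypes, Itgax was the lowest of the 10 genes on this scale, at 0.796 ± 0.432 in DKO and 0.230 ± 0.133 in TKO.

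Lyz2 (ENSMUSG00000069516.8, chr10:117277331-117282321, minus strand) encodes lysozyme M, a bactericidal enzyme of macrophages and neutrophils. It had 44.7, 91.6 and 236 normalized counts in TKO and 353, 678 and 625 in DKO. The groups did not overlap, and TKO replicate 3 was the TKO retina nearest to DKO. Its log2 fold change of -2.17 (SE 0.50, adjusted p = 0.024) was the largest fall of the 10 genes, 4.49-fold with a 95% interval from 2.02 to 9.98. The call was lost without TKO replicate 2 (adjusted p = 0.098), without DKO replicate 1 (0.051) or DKO replicate 2 (0.089), and with robust dispersion estimates (0.079). Lyz1, a near-identical neighbour on chromosome 10, had 5.75 to 15.4 counts for every 100 of Lyz2, and reads could be split between both genes. Of 8 neutrophil markers, 1 had enough counts to be tested and it was not called. Of 9 tested markers of border macrophages and monocytes, 1 was lower and 0 were higher in TKO, with a median log2 fold change of -2.27. The summed level of these markers ranged from 25.7 to 30.6 CPM in TKO and from 31.2 to 40.7 CPM in DKO. Ms4a7, a macrophage surface gene, was the gene called, with 2.29, 3.16 and 14.7 normalized counts in TKO and 23.5, 66.5 and 69.1 in DKO (log2 fold change -3.0, SE 0.66, adjusted p = 0.020, called in 3 of 6 fits with 1 retina left out). Mrc1, the mannose receptor, was below in every TKO retina and not called (log2 fold change -2.27, SE 0.67, adjusted p = 0.053), and Lyve1, the marker of largest count, was not called either (0.24, SE 0.12, adjusted p = 0.20). The part of these cells in the Lyz2 level was not tested.

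Gpnmb (ENSMUSG00000029816.10, chr6:49036546-49070929, plus strand) encodes a transmembrane glycoprotein of lysosomes and melanosomes. It had 119, 149 and 220 normalized counts in TKO and 252, 572 and 449 in DKO. No TKO retina reached the lowest DKO retina, and the log2 fold change was -1.39 (SE 0.32, adjusted p = 0.023). Without TKO replicate 1, TKO replicate 2 or DKO replicate 2, the adjusted p was 0.074, 0.091 and 0.086. Of 11 pigment cell and RPE markers, 0 were lower and 1 was higher in TKO (Rpe65, the retinoid isomerase, log2 fold change 3.03, SE 0.77, adjusted p = 0.032), and the median log2 fold change was 0.41. The call of Rpe65 was lost in 4 of the 6 fits with 1 retina left out.

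Spp1 (ENSMUSG00000029304.14, chr5:104435118-104441050, plus strand) encodes osteopontin, a secreted phosphoprotein that binds integrins and CD44, and it overlaps Gm42793 on the same strand. It had 346, 354 and 457 normalized counts in TKO and 2091, 661 and 757 in DKO. The DKO retinae did not overlap with the TKO retinae, but replicate 1 was far above the other DKO retinae. The log2 fold change was -1.60 (SE 0.41, adjusted p = 0.034). Bone genes, a list chosen after the data were seen, were also high in DKO replicate 1. Their 11 genes summed to 1454 CPM there and to between 19.7 and 130 in the other retinae, and all 11 were highest in DKO replicate 1. Col1a1 had 8275 counts, Dmp1 702 and Ibsp 344, and the last 2 had 0 in every other retina. Without DKO replicate 1, the log2 fold change of Spp1 was -0.88 and it was still called (adjusted p = 0.036). It was lost without TKO replicate 1 (0.10), without TKO replicate 2 (0.12) and with robust dispersion estimates (0.10). The part that bone tissue plays in the DKO level was not tested. Of 10 retinal ganglion cell markers, 1 was higher and 0 were lower in TKO.

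Of the 6 osteopontin receptor genes listed, Itgb1 and Itgb3 were lower in TKO, and Itgav, Itga4, Itga9 and Cd44 were not called. Itgb1, which pairs with several integrin alpha chains, had a log2 fold change of -0.49 (SE 0.10, adjusted p = 0.015). Itgb3 had one of -1.25 (SE 0.30, adjusted p = 0.026). With 1 retina left out, Itgb1 was called in 3 of 6 fits and Itgb3 in 2 of 6. The alpha chains Itgav (-0.39, adjusted p = 0.059) and Itga9 (-0.27, adjusted p = 0.31) had negative log2 fold changes, and Itga4 lay higher in every TKO retina (0.58, adjusted p = 0.098). Cd44 had 302, 452 and 472 normalized counts in TKO and 533, 483 and 1130 in DKO, and its log2 fold change of -0.81 was not called (SE 0.32, adjusted p = 0.12).

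Lpl (ENSMUSG00000015568.16, chr8:68880491-68907448, plus strand) encodes lipoprotein lipase, which releases fatty acids from triglyceride-rich lipoproteins. It had 531, 755 and 909 normalized counts in TKO and 1174, 1121 and 906 in DKO. TKO replicate 3 and DKO replicate 3 had nearly the same value, so the groups overlapped, and the difference was not called (log2 fold change -0.54, SE 0.19, adjusted p = 0.080). It passed with DESeq2 (adjusted p = 0.031), with library totals alone (0.049) and without TKO replicate 3 (0.022). Vldlr, a lipoprotein receptor that binds it, was higher in TKO, by a log2 fold change of 0.97 (SE 0.14, adjusted p = 0.0073), and kept its call in 6 of 6 fits with 1 retina left out.

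Itgax (ENSMUSG00000030789.9, chr7:128129547-128150657, plus strand) encodes CD11c, the alpha chain of complement receptor 4, which marks dendritic cells and a subset of activated microglia. It had 9.17, 9.47 and 23.3 normalized counts in TKO and 39.5, 77.9 and 27.6 in DKO. The groups were apart by little, 23.3 against 27.6, and the raw counts were 8, 9 and 19 in TKO and 42, 89 and 32 in DKO. The log2 fold change was -1.80 (SE 0.51, adjusted p = 0.046). Leaving out TKO replicate 1 or 2 or DKO replicate 1 or 2 gave an adjusted p from 0.092 to 0.16. Its beta chain Itgb2 was lower by -0.99 on the log2 scale (SE 0.24, adjusted p = 0.027), and so was Icam1, a ligand of that receptor (-2.03, SE 0.30, adjusted p = 0.0073). Itgb2 was called in 1 of 6 fits with 1 retina left out and Icam1 in 6 of 6. Of 4 tested dendritic cell markers, 2 were lower in TKO, Zbtb46 and Batf3, which are transcription factors of dendritic cells. With 1 retina left out, each was called in 3 of 6 fits. Flt3 was level (log2 fold change 0.01, SE 0.22, adjusted p = 0.97). Xcr1, named here after its values were seen, was higher in every TKO retina at low counts and was not called (1.40, SE 0.65, adjusted p = 0.17).

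**Figure D3:**
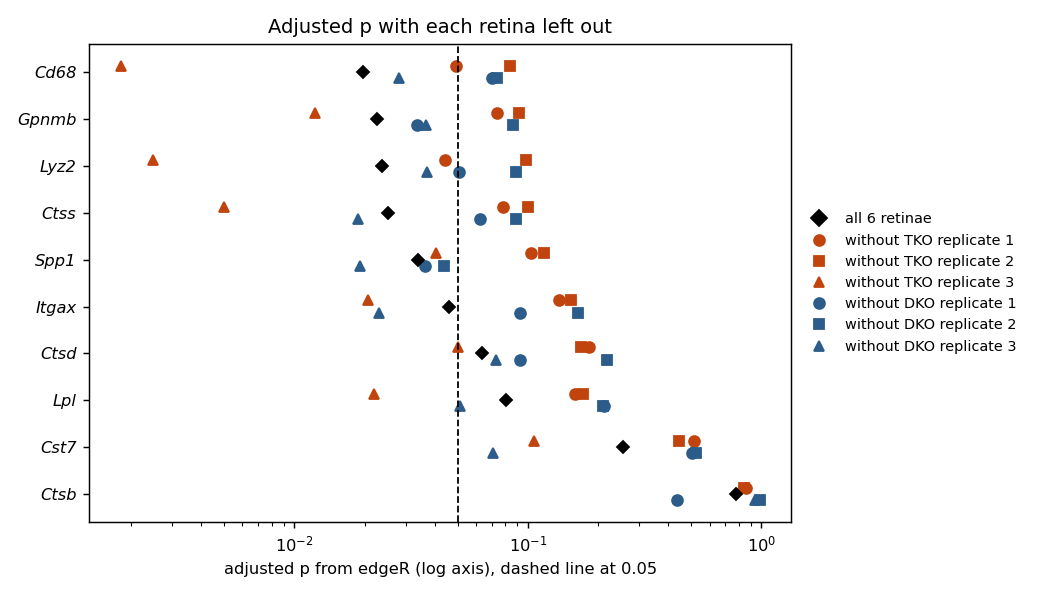
Adjusted p from edgeR (log x axis) for the 10 genes with all 6 retinae (diamonds) and with each retina left out in turn (colored marks), with a dashed line at 0.05. None of the 6 called genes stays left of the line in all 6 fits.

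No single call of the 10 genes held in all 6 fits with 1 retina left out. Leaving out TKO replicate 1, 2 or 3 left 2, 0 and 7 of the 10 genes called lower. Leaving out DKO replicate 1, 2 or 3 left 2, 1 and 6. Among all tested genes, these 6 fits called 766, 404, 1973, 499, 433 and 1715 lower, beside 1556 with all 6 retinae. In the fit without TKO replicate 2, 8 of the 10 genes were lower at an unadjusted p of at most 0.05 and 0 were higher. The share of all tested genes at that unadjusted p was not computed, so nothing is read from the 8. In that fit all genes called also fell, from 2799 to 712.

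The genes were then set against microglia markers of the same retina, 20 genes whose summed level ranged from 238 to 369 CPM in TKO and from 429 to 658 in DKO. Of these 20 markers, 9 were lower in TKO and 0 were higher, with a median log2 fold change of -0.95. Leaving out TKO replicate 2, DKO replicate 1 or DKO replicate 2 lowered the 9 to 2, 3 and 2, and leaving out DKO replicate 3 raised it to 14. Csf1r, the receptor that microglia need to survive, had a log2 fold change of -1.03 (SE 0.20, adjusted p = 0.014). C1qb, C1qa and C1qc, which form the complement C1q complex, had log2 fold changes of -1.17, -1.29 and -1.28. Tgfbr1, a receptor for TGF-beta, was not called (adjusted p = 0.13). The homeostatic markers differed among themselves, as those named here after their values were seen show. Fcrls (-1.73, SE 0.27, adjusted p = 0.0082, called in 6 of 6 fits with 1 retina left out) and the fractalkine receptor Cx3cr1 (-1.09, SE 0.27, adjusted p = 0.031, called in 2 of 6) were lower. P2ry12, Tmem119 and Siglech were not called (adjusted p = 0.95, 0.47 and 0.10), and Siglech was higher in every TKO retina, with a log2 fold change of 0.77 (SE 0.28).

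For every 100 counts of the microglia markers, Ctsb reached 241, 203 and 157 in TKO against 93.0, 97.5 and 146 in DKO. Ctsd had 240, 221 and 185 in TKO and 131, 138 and 182 in DKO. Lpl had 17.6, 20.9 and 19.5 in TKO and 16.4, 13.5 and 16.7 in DKO. For these 3 genes every TKO retina was above every DKO retina, by little for Ctsd. The summed marker level was itself lower in every TKO retina, so a gene that is level in the whole retina rises on this ratio. Before the ratio, Ctsb had a log2 fold change of -0.05. The share of all tested genes above or below on this ratio was not computed. The number of the 10 genes above or below is therefore not read as a result about them. Ratios were also taken against P2ry12, Tmem119, Cx3cr1 and Csf1r alone. These had mean normalized counts of 78.6, 53.4, 386 and 616, so Cx3cr1 and Csf1r, both lower in TKO, weighed most in that sum. There Ctsd overlapped, at 868 per 100 in TKO replicate 3 and 871 in DKO replicate 3 (two-sided exact permutation p = 0.2). Ctsb and Lpl did not overlap. Against the 20 markers, Itgax was the 1 gene for which every TKO retina was below. It had 0.304, 0.262 and 0.50 in TKO against 0.551, 0.936 and 0.510 in DKO. The ranges of the other 6 genes overlapped, Lyz2 among them, at 1.48, 2.53 and 5.05 in TKO against 4.92, 8.15 and 11.5 in DKO. Leaving out TKO replicate 3 raised the count of genes with every TKO retina below to 3, and leaving out DKO replicate 1 or 2 raised it to 4 and 3. Leaving out a retina can only keep or raise this count, so nothing is read from the rise. Ctss was nearly level, at 15.2, 14.3 and 16.8 in TKO against 14.1, 17.2 and 17.3 in DKO. With 3 retinae against 3, the two-sided exact permutation test cannot go below 0.1, which Ctsb, Ctsd, Lpl and Itgax reached (adjusted over the 10 genes, 0.25).

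**Figure D4:**
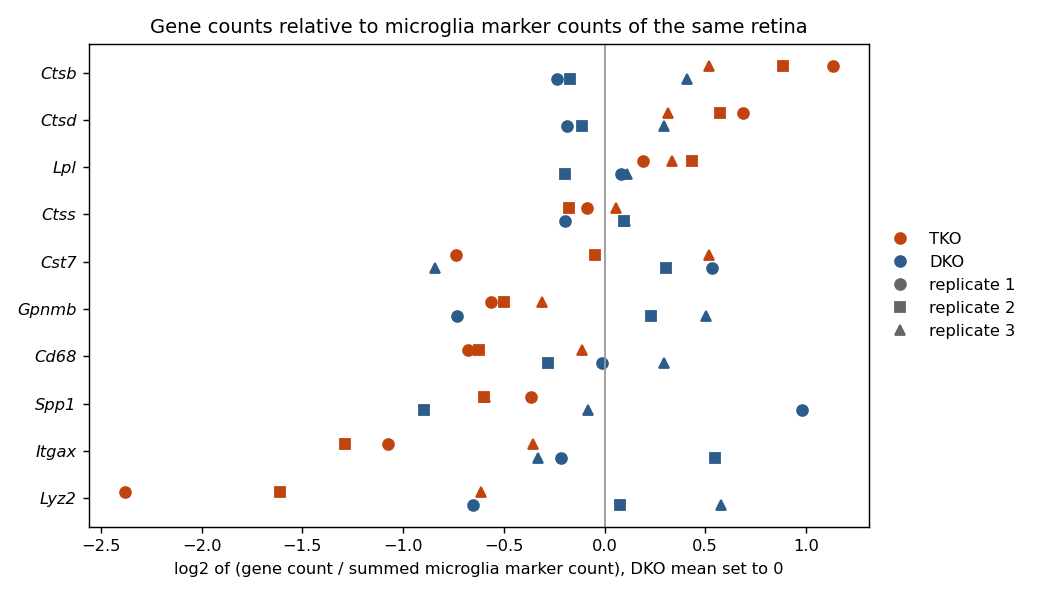
Log2 of each gene's count over the summed count of 20 microglia markers in the same retina (x axis), shifted so that the DKO mean is 0, for 3 TKO and 3 DKO retinae. Ctsb, Ctsd and Lpl lie higher in every TKO retina, and Itgax lies lower. The marker sum was itself lower in every TKO retina.

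Of 24 other activated microglia genes, 13 were lower and 0 higher (median log2 fold change -1.01). The 13 became 6 and 4 without TKO replicates 1 and 2, and 4 and 6 without DKO replicates 1 and 2. By mean count, the first of them were Apoe, a lipid carrier, Fabp5, a fatty acid chaperone, Ctsz, a cathepsin, and Axl, a receptor for dying cells, with log2 fold changes of -0.90, -0.88, -0.69 and -0.77. Fabp5 and Ctsz were called in 6 of 6 fits with 1 retina left out, Axl in 4 and Apoe in 1. Apoe had 7299, 11683 and 15903 normalized counts in TKO and 18091, 23733 and 23461 in DKO. Of 25 phagocytic receptors and adaptors, 9 were lower and 1 was higher (Axl is in this list too). The 9 became 4, 2 and 15 without TKO replicates 1, 2 and 3, and 2 and 4 without DKO replicates 1 and 2. The lower genes included Itgb5 (-0.53), which pairs with Itgav to bind dying cells, and Stab1 (-1.59), a scavenger receptor. Gas6, the bridging ligand of Axl and Mertk, was higher by 0.37 (SE 0.10, adjusted p = 0.039).

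Of 27 other lysosome genes, 2 were lower and 2 higher, and the median log2 fold change was -0.01. With 1 retina left out, 0 to 4 of them were lower. The higher genes were Tpp1, a peptidase, and Npc1, a cholesterol exporter, with log2 fold changes of 0.35 and 0.30. Grn, the precursor of granulins, and Gusb, a glucuronidase, were lower by -0.68 and -0.74. Of 13 other cathepsins and cystatins, Ctsz, Ctsc and Ctsh were lower and Ctsf was higher (log2 fold change 0.87, SE 0.15, adjusted p = 0.0096). Of 12 myeloid and lysosomal transcription factors, 3 were lower and 1 was higher. Spi1, which encodes the myeloid factor PU.1, was lower by -1.60 (SE 0.31, adjusted p = 0.013), Irf8 by -1.06 and Cebpa by -0.87, and Bhlhe41 was higher by 0.44. With 1 retina left out, Spi1 was called in 4 of 6 fits, Bhlhe41 in 2, Irf8 in 1 and Cebpa in 0. Of 15 type I interferon response genes, 14 were lower and 0 higher, and all 14 kept their call in the 6 fits with 1 retina left out.

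**Figure D5:**
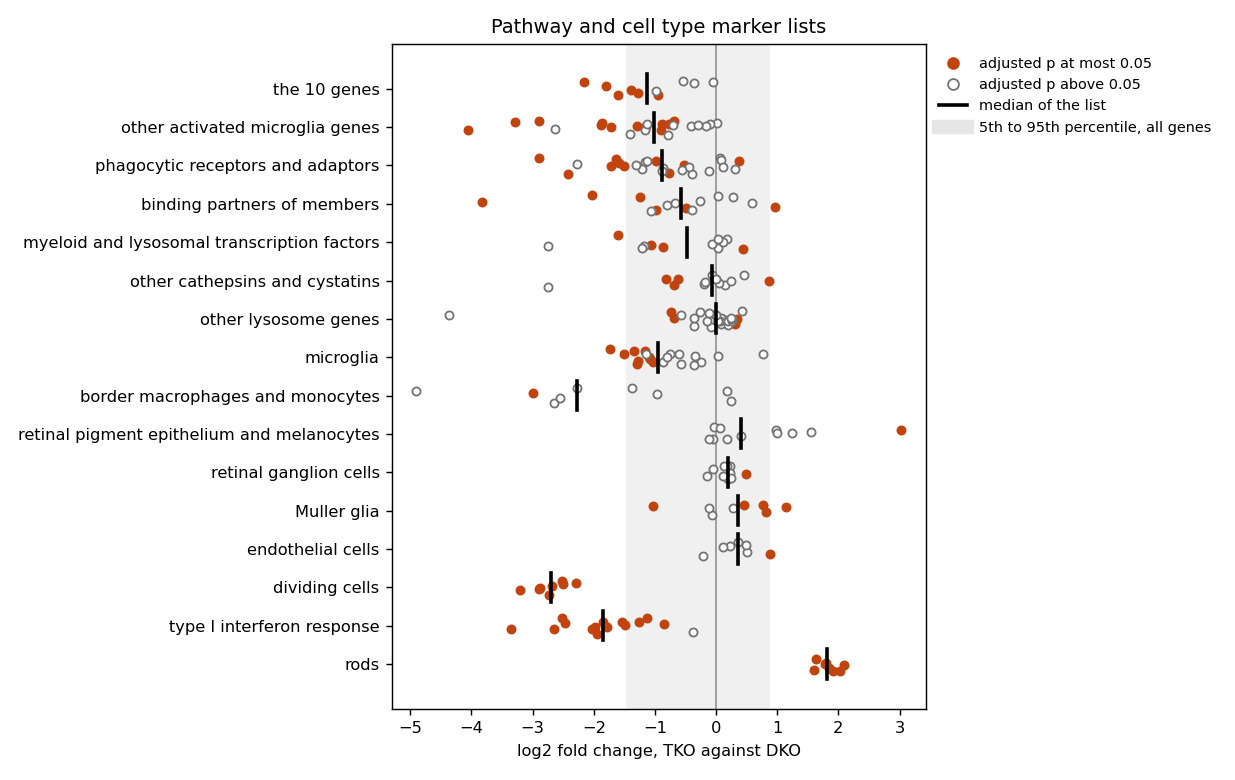
Log2 fold change of TKO against DKO (x axis) for each tested gene of 16 lists (y axis), filled where the adjusted p was at most 0.05, with a bar at the list's median and a band for all tested genes. The 10 genes have a median of -1.13, other activated microglia genes -1.01, other lysosome genes -0.01 and interferon genes -1.86.

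The 4 genes whose profile over the 6 retinae was most like the mean profile of the 10 genes were Crabp1, C1qa, Sash3 and Sspn. Likeness was the root mean square distance of z-scored log2 CPM over 6 retinae, which was 0.0692, 0.0760, 0.0813 and 0.0829. C1qa had 221, 270 and 410 normalized counts in TKO and 642, 939 and 616 in DKO, and Crabp1, a retinoic acid binding protein of neurons, had 205, 260 and 345 in TKO and 506, 644 and 477 in DKO.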

How the data were processed

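Raw counts were analysed from 3 TKO and 3 DKO retinae at postnatal day 21, with genotype and replicate number taken from the sample labels. The deposited counts are the authors' raw read counts per gene symbol, with 1 column per retina. The paper describes alignment to GRCm38 with STAR, with multiple alignments of a read allowed, and counting with HTSeq. The submitters' processing notes name TopHat2, featureCounts and DESeq2, and which was used is not settled here. The library kit was stranded (TruSeq Stranded mRNA) and the strand setting of the counting is not given in the sources used here. Near-identical and overlapping genes are therefore less certain.

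The 10 genes and the gene lists were chosen with earlier results of these data known. The labels give each retina a number of its own but do not say that the retinae came from separate animals, so p-values measure the spread between these samples. Within a genotype the libraries varied beyond sampling noise, with a chi-square of 8.61 to 25.3 for each degree of freedom. Where a library has a count of 0, as many as 3 counts remain possible, a limit of counting error alone.

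The fit kept the 16904 genes whose counts summed to at least 10, used the quasi-likelihood F test of edgeR 4.0.16 after TMM scaling (R 4.3.3), and was adjusted over these genes. Standard errors were the size of the log2 fold change over the root of its F. DESeq2 1.42.0 was an alternative. Another was the study's call rule (adjusted p at most 0.05, absolute log2 fold change at least 1, mean normalized count at least 10). That rule was applied to the edgeR fit, whereas the study applied it to DESeq2. Other alternatives were the RLE, upper-quartile and total-count scalings, robust dispersion, 3 filters on low counts, a replicate block and each retina left out. Ratios to microglia markers used raw counts and a two-sided exact permutation test. Lyz2 and Lyz1 summed, and the bone genes, were added after seeing the data. Coordinates, exon lengths and overlapping genes come from GENCODE M21 (GRCm38), where all 10 genes were found.

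Genes named were the 10 genes, Hells, binding partners of the 10 genes, at most 4 called genes of each list by mean count, the 2 markers of largest mean count, and the 4 genes of most similar profile. Genes named outside this rule were chosen after their values were seen, and these are Lyz1, the bone genes and the markers so described. A gene that the rule names is not reported here.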

Additional observations from a re-analysis of the deposited data

How the results depend on the processing

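The 10 genes kept a negative log2 fold change in the alternatives run, with 1 exception, Ctsb, which ran from -0.13 to 0.0059 with 1 retina left out (0.0059 without DKO replicate 2). Of the 10 genes, 6 were called lower with RLE scaling, upper-quartile scaling, no filter and filterByExpr, 5 with robust dispersion, with at least 10 counts in every library (8 genes tested) and by the study's 3 criteria, and 8 with DESeq2 and with total counts alone. With total counts alone, the median of all genes was -0.17 and 77.0% of called genes were lower, beside 55.6% in the reported fit. Among all tested genes, DESeq2 called 1769 lower and 1490 higher, and total counts alone 2610 and 778. With 1 retina left out, 0 to 7 of the 10 genes were lower, 647 to 3590 genes were called in all, and 1 to 4 genes were below relative to microglia markers. The last of these counts cannot fall when a retina is left out. The study's 3 criteria, applied to the edgeR fit, called 1074 genes. None of the 10 genes was called higher in any of these fits. With Lyz1 added to Lyz2, the call of Lyz2 was kept.

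Replicate numbers did not pair the retinae: the correlations of same-numbered deviations were 0.067, -0.049 and -0.20. With a replicate block, 0 of the 10 genes and 106 genes in all were called, which is not read as a weaker effect. In that fit 8 of the 10 were lower at an unadjusted p of at most 0.05. The share of all genes at that p was not computed, so nothing is read from the 8. The low counts of Itgax and Cst7 limit their precision. Causes of the changes between settings were not tested.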
